A study of Mus musculus with 11 samples.

Results

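SOX2 and POU5F1 binding was compared between the ChIP-seq peak lists of these TFs from EpiSCs (epiblast stem cells) that had been freed from activin, a culture that the labels call EpiSCA. A peak of one list was called shared if at least 1 bp of it lay in a peak of the other list. On chromosomes 1 to 19 and X, 12915 of 87781 SOX2 peaks and 12774 of 126751 POU5F1 peaks were shared, which formed 13392 overlapping pairs, and the 74866 SOX2 peaks and 113977 POU5F1 peaks that remained were unshared. Both lists together hold 214532 of the 1004445 peaks in the 10 lists of the series.

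The cells were a 129/Sv mouse EpiSC line, which represents the epiblast after implantation, kept without feeder cells, with Fgf2 at 10 ng/ml and activin at 20 ng/ml. In EpiSCA, activin was withdrawn 18 h before the cells were harvested, and EpiSC cultures, used below for comparison, did not. Each library came from cells transiently transfected with a pCAGGS vector for 1 TF, tagged with a BLRP sequence, and for the biotin ligase BirA, and the tagged TF was pulled down with streptavidin. The peaks therefore belong to an exogenous TF in cells that also express the endogenous TFs. There was 1 library for each TF in each culture, so no difference between libraries could be tested, and no value has a replicate error. The lists give peaks without reads, so the depth of the libraries is unknown, and the 95% intervals given below cover counting error only.

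SOX2 binds DNA in the minor groove through its HMG box. POU5F1, also called OCT4, binds an 8-base sequence, the octamer, through its POU-specific domain and POU homeodomain. In embryonic stem cells (ESCs), both TFs are known as partners in the regulation of pluripotency genes, where a SOX site next to an octamer, the composite element, allows them to bind side by side. EpiSCs are a later, primed state of pluripotency, in which removal of activin leads towards the anterior neural plate.

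Binding sequences were searched on both strands of mm9. The SOX sequence was ACAANN, with A or T as the fifth base and A or G as the last, the octamer was ATGCAAAT or the variant ATGCATAT, and the composite element was ATTGT followed after 0 to 3 bases by an octamer. A further feature was a stretch of at least 20 bases in which purines and pyrimidines alternate, and since the variant octamer itself alternates, such a stretch can contain it. An exact composite lay in the overlap of the SOX2 and POU5F1 peaks at 21 of the 12915 shared sites (0.163%, 0.106 to 0.248%), compared with 17 of 25830 windows of the same length 2000 bp to either side (0.0658%, 0.0411 to 0.105%). Of these 21, 9 had 1 base between ATTGT and the octamer. The 4 with the highest scores in both lists are shown as examples of the element, with 1 to 3 bases between ATTGT and the octamer. They lie at chr2:69647392-69647456 (nearest protein-coding TSS Klhl23, 12.9 kb), at chr4:38604641-38604706 (1700009N14Rik, 793 kb, in an intron of Gm12381), at chr2:89696044-89696107 (Olfr48, 10.9 kb) and at chr5:55686033-55686098 (Stim2, 1296 kb). All are printed from the plus strand of mm9, with ATTGT and the octamer in capitals.
Klhl23: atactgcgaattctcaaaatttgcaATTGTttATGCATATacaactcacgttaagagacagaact
1700009N14Rik: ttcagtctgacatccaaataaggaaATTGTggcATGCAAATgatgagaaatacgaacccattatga
Olfr48: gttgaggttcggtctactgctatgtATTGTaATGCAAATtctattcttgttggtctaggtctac
Stim2: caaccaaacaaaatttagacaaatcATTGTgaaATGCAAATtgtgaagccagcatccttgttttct

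At the Klhl23 site the SOX2 peak had a score of 523, the POU5F1 peak a score of 741, and the midpoints lay 41 bp apart. The score is that of MACS, −10 times the log10 of the p-value of the peak, and was at least 50 in every list. At the site nearest to 1700009N14Rik the scores were 517 and 1772, with midpoints 626 bp apart. The sites nearest to Olfr48 and Stim2 had SOX2 scores of 336 and 251 and POU5F1 scores of 345 and 1624. The midpoints at these sites lay 162 and 177 bp apart.

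Shared sites can also hold both binding sequences apart from each other. To show this arrangement, 2 sites were chosen, after values had been seen, as those with the highest scores among shared sites with midpoints within 100 bp of each other and a SOX sequence and an octamer that start no more than 60 bases apart. The first lies in an intron of Tfb1m at chr17:3551334-3551392, with 15 bases between the SOX sequence and the octamer, and the second in an intron of Tmeff2 at chr1:51085573-51085660, with 44 bases between them. Both are printed from the plus strand, with the SOX sequence, here ACAAAA, and the octamer in capitals.
Tfb1m: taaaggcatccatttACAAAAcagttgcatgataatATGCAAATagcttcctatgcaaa
Tmeff2: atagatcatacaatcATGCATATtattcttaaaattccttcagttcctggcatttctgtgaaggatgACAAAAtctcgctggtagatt

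At the Tfb1m site the scores were 600 for SOX2 and 833 for POU5F1, with midpoints 10 bp apart. At the Tmeff2 site they were 694 and 584, with midpoints 93 bp apart. In contrast to these sites, many POU5F1 peaks without SOX2 lay on alternating stretches, shown by a peak with a POU5F1 score of 3233 at chr5:121122656-121122729 in an intron of Rasal1. Its stretch of 34 bases is in capitals and contains repeats of ACATGC.
Rasal1: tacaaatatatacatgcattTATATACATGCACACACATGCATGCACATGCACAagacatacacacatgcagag

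SOX2 and POU5F1 peaks overlapped more often than rotated lists, but most peaks of both TFs were unshared. The share was 14.7% of SOX2 peaks (95% Wilson interval 14.5 to 14.9%) and 10.1% of POU5F1 peaks (9.91 to 10.2%). When the POU5F1 list was rotated, that is, when all its peaks on a chromosome were shifted by the same random distance, the SOX2 share averaged 9.31% over 1000 rotations and ranged from 8.83 to 9.90%. The POU5F1 share averaged 6.42% and ranged from 6.06 to 6.83%. The observed share was thus 1.58 times the rotation mean for SOX2 and 1.57 times for POU5F1, an excess of 4740 SOX2 peaks. These ratios describe 1 library of each TF.

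A part of this excess lay in regions rich in both TFs. Over 2578 segments of 1 Mb, the numbers of SOX2 and POU5F1 peaks had a Spearman's rho of 0.69, and each was lower where the GC content was higher (rho −0.51 for SOX2 and −0.55 for POU5F1). Segments of 1 chromosome are not independent, and both lists can follow the same base composition, so these values are descriptions. When each POU5F1 peak was instead placed at random in its own segment, the SOX2 ratio was 1.34 and the POU5F1 ratio 1.28. By chromosome, the SOX2 ratio ranged from 1.35 on chromosome 18 to 1.94 on chromosome 7.

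The other pairs of lists show where this overlap stands. When each list was limited to the 50000 peaks with the highest scores, which gives all lists the same length, 8.08% of SOX2 peaks were shared in EpiSCA (ratio 1.67), compared with 7.02% in EpiSC (ratio 1.80). In the full EpiSCA lists, which differ in length, SOX2 shared 14.7% of its peaks with POU5F1 (ratio 1.58). It shared 16.4% with POU3F1 (ratio 1.85) and 16.7% with OTX2 (ratio 1.96), but only 6.09% with ZIC2 (ratio 0.852). POU5F1 shared 46.3% of its peaks with POU3F1, the other POU factor profiled, at a ratio of 4.66. In the full lists, the overlap of SOX2 with POU5F1 therefore had a lower ratio than that with POU3F1 or OTX2. These comparisons share lists, and their differences were not tested.

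Within shared pairs, the peak centres were not tightly aligned. The median distance between midpoints was 469 bp (quartiles 218 and 745 bp), and in 100 rotations the pairs that overlapped had medians from 468 to 493 bp. Midpoints lay within 100 bp of each other in 1659 pairs (12.4%, compared with a mean of 10.5% in rotated pairs), within 250 bp in 28.5% (26.0% in rotated pairs), and over 500 bp apart in 46.9%. In 5354 pairs (40.0%) both midpoints lay inside the other peak, and in 4382 (32.7%) neither did. The overlap had a median of 502 bp, and 3314 SOX2 peaks lay entirely inside a POU5F1 peak. In all, the pairs shared 6.86 Mb, which is 9.82% of the SOX2 peak width and 4.79% of the POU5F1 peak width.

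POU5F1 midpoints were counted in bins of 100 bp around every SOX2 midpoint. The central bin held 843 midpoints, 1.45 times the mean of bins 4000 to 5000 bp away (exact Poisson interval 1.36 to 1.55). The intervals of all 5 bins on each side, out to 500 bp, also stayed above this mean. The central ratio was 1.85 (1.67 to 2.04) for the same TFs in EpiSC and 1.61 (1.51 to 1.73) for SOX2 and POU3F1 in EpiSCA. For POU5F1 and POU3F1 it was 11.5 (11.3 to 11.7), a sharply centred coincidence that SOX2 and POU5F1 did not show.

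**Figure D1:**
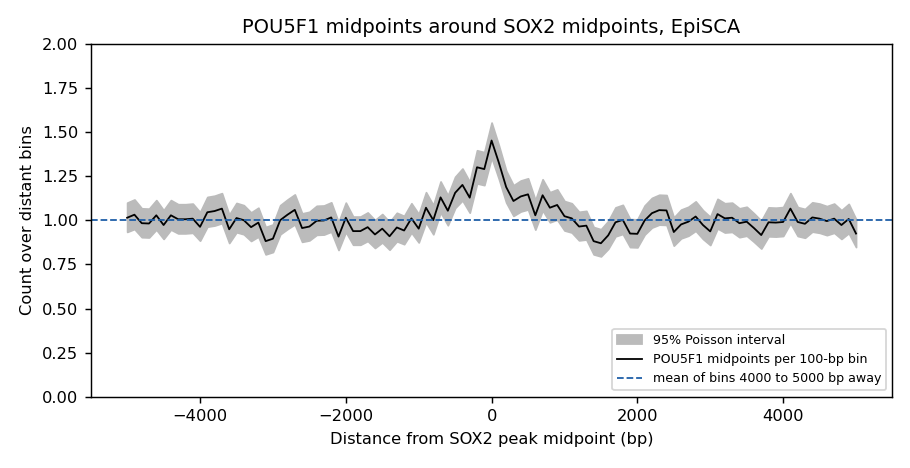
POU5F1 peak midpoints in bins of 100 bp (x axis, distance from the SOX2 midpoint in bp) divided by the mean of bins 4000 to 5000 bp away (y axis), with the exact 95% Poisson interval in grey. The central bin stands at 1.45, and the rise extends to about 500 bp on either side.

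The score distributions of the lists differed, with medians of 104.52 for SOX2 and 208.39 for POU5F1 and 3 and 3466 peaks with scores of 3100 or more, so scores are compared within a list. Shared peaks had higher scores and were wider than unshared ones, and wider peaks were also shared more often in rotated lists. The median score was 119 for shared and 102 for unshared SOX2 peaks, and 284 and 202 for POU5F1 peaks. The median width was 770 and 717 bp for SOX2, and 1125 and 959 bp for POU5F1. POU5F1 peaks over 2000 bp made up 15.7% of the shared and 6.20% of the unshared peaks. Among peaks under 1000 bp in both lists, the POU5F1 score difference turned to −2.89, while that of SOX2 remained at 10.2. With overlap of at least 50% of both peaks, the POU5F1 differences in score and width were −26.3 and −18 bp.

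The ratio to the rotation mean was therefore taken within classes of score and width. The shared percentage of SOX2 peaks rose from 11.4% in the sixth of the list with the lowest scores to 18.7% in the highest sixth, and the ratio to the rotation mean of the same peaks rose from 1.41 to 1.67. For POU5F1 the percentage rose from 7.75 to 13.8%, but the ratio moved only from 1.54 to 1.61. Among POU5F1 peaks 600 to 1000 bp wide, the direction was the opposite, with 8.39% shared among those with scores below the median (ratio 1.59) and 7.32% among the others (ratio 1.32). For SOX2 peaks of these widths the values were 14.0% (ratio 1.57) and 16.0% (ratio 1.69). By width, the POU5F1 ratio was 1.11 below 500 bp, 1.53 from 1000 to 1500 bp and 1.98 from 2000 bp, where 22.1% of 9086 peaks were shared. The SOX2 ratio showed no such order, with 1.45 below 500 bp, 1.67 from 800 to 1000 bp and 1.41 from 2000 bp. Across pairs, the SOX2 score had no relation to the POU5F1 score (Spearman's rho −0.03 over 13392 pairs), and neither did the widths (−0.02).

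**Figure D2:**
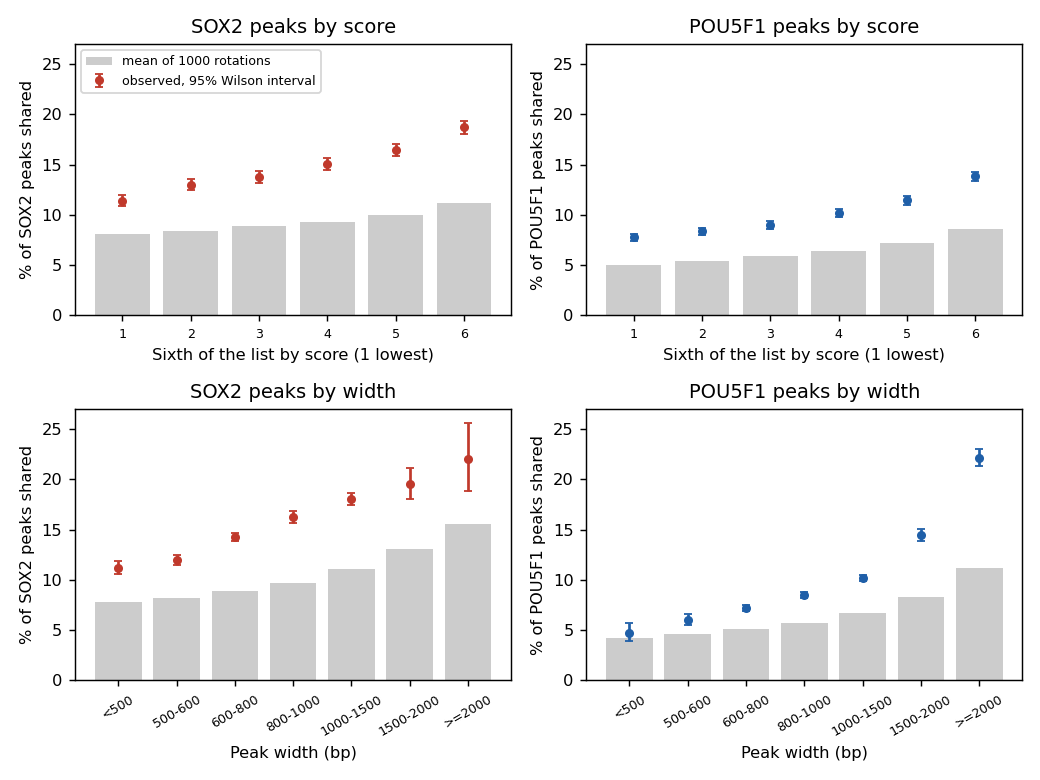
Percentage of SOX2 (left) and POU5F1 (right) peaks that were shared, by sixth of the list in order of score (top) and by peak width in bp (bottom). Points are observed values with 95% Wilson intervals, and grey bars are the mean of 1000 rotations for the same peaks. In the widest POU5F1 class 22.1% of peaks were shared.

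The TF that most often accompanied shared peaks was POU3F1. Of the shared SOX2 peaks, 61.1% also overlapped a POU3F1 peak, compared with 8.68% of the unshared ones. Of the POU5F1 peaks, 62.9% of the shared and 44.4% of the unshared overlapped POU3F1. Conversely, 54.8% of the 14385 SOX2 peaks with POU3F1 had a POU5F1 peak (ratio 5.69), but 6.85% of the 73396 SOX2 peaks without POU3F1 did, which is below the rotation mean (ratio 0.741). Irrespective of SOX2, 54.6% of all 101920 POU3F1 peaks overlapped a POU5F1 peak, nearly the same share as at SOX2 peaks with POU3F1, and rotation of the POU5F1 list removes this overlap of the POU factors as well. POU5F1 peaks without POU3F1 were shared with SOX2 at a ratio of 1.20.

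OTX2, a homeodomain TF of the epiblast and the anterior neural plate, accompanied shared POU5F1 peaks more than unshared ones. It had a peak at 21.5% of shared and 9.50% of unshared POU5F1 peaks, and at 19.7% and 16.2% of SOX2 peaks. POU5F1 peaks with OTX2 were shared with SOX2 in 20.3% of cases (ratio 2.95), those with both OTX2 and POU3F1 in 25.2% (ratio 3.30), and those with neither in 6.15% (ratio 1.06). Irrespective of POU5F1, 12.5% of all 113831 OTX2 peaks overlapped a SOX2 peak (ratio 1.92). Rotation of the POU5F1 list moves its peaks off OTX2 peaks as well. ZIC2, a zinc finger TF, was rarer at shared SOX2 peaks (4.17%) than at unshared ones (6.42%), whereas at POU5F1 peaks its share was 4.49% and 3.37%. With midpoints within 250 bp in place of 1 bp of overlap, the ZIC2 difference at SOX2 peaks turned from −2.25 to 0.616 percentage points. No peak of these 3 TFs was listed at 30.4% of shared and 72.8% of unshared SOX2 peaks, or at 28.5% of shared and 48.5% of unshared POU5F1 peaks.

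**Figure D3:**
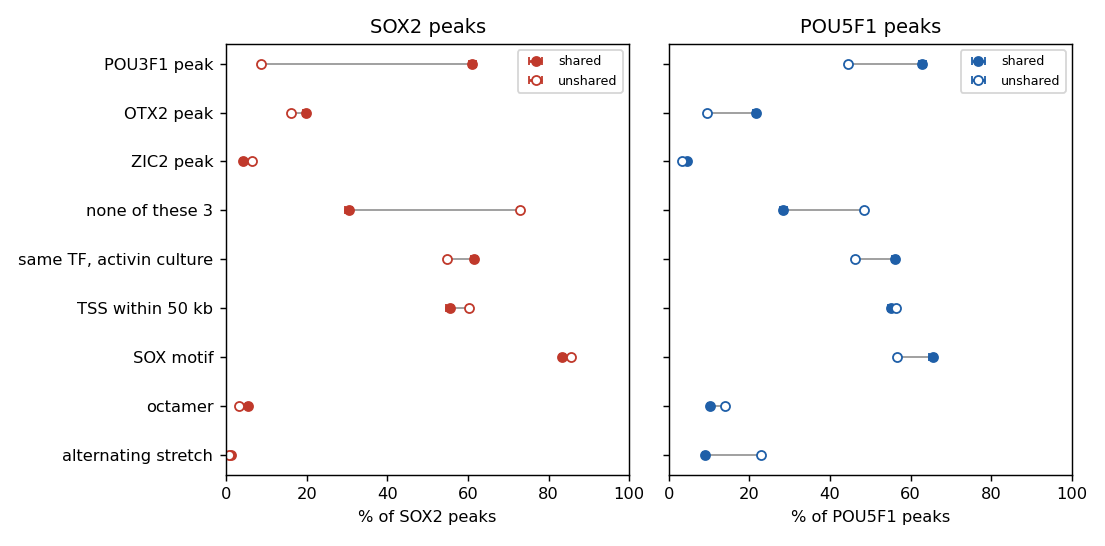
Percentage of shared (filled) and unshared (open) SOX2 peaks (left) and POU5F1 peaks (right) with each feature, with 95% Wilson intervals that are mostly smaller than the points. Of the features plotted, POU3F1 peaks at SOX2 peaks have the widest gap, 61.1% against 8.68%.

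The same TF was listed in EpiSC, with activin, at more shared than unshared peaks. This held for 61.5% of shared and 54.9% of unshared SOX2 peaks, and for 56.1% and 46.1% of POU5F1 peaks. When each shared SOX2 peak was paired with its nearest POU5F1 peak, 4536 of the 12915 sites (35.1%) had EpiSC peaks of both TFs, 26.4% of SOX2 alone, 21.9% of POU5F1 alone, and 2146 (16.6%) of neither. The sites with both had median scores of 170 for SOX2 and 703 for POU5F1 in EpiSCA, and the sites with neither 77.7 and 118. Of the 5094 SOX2 peaks that were shared with POU5F1 in EpiSC, 78.0% (76.9 to 79.1%) overlapped a SOX2 peak that was shared in EpiSCA. The lists in EpiSCA are longer (126751 POU5F1 peaks compared with 62387), and the part of list length in these shares was not tested.

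Binding sequences separated the sets in different ways at the midpoints of each TF. In windows within 100 bp of the SOX2 midpoint, the SOX sequence was present at 83.4% of shared and 85.5% of unshared peaks, compared with 57.9% and 56.3% of windows centred 1000 bp to either side. At POU5F1 midpoints it was present at 65.5% of shared peaks (flanks 59.5%) and at 56.6% of unshared peaks (flanks 54.4%). The octamer was found at 10.3% of shared and 14.0% of unshared POU5F1 peaks, with 3.53% and 3.30% in the flanks. These shares include the variant octamer, which alternates, and octamers inside alternating stretches were not counted apart. At SOX2 midpoints the octamer was present at 5.43% of shared (flanks 4.05%) and 3.11% of unshared peaks (flanks 2.69%). SOX2 peaks with an octamer were shared with POU5F1 in 23.1% of cases (ratio 2.48), compared with 14.4% of those without (ratio 1.55).

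The composite element itself, of which examples are printed above, was rare in every set. Within 100 bp of the midpoint it occurred at 4 shared SOX2 peaks (0.0310%), 22 unshared SOX2 peaks (0.0294%), 10 shared POU5F1 peaks (0.0783%) and 117 unshared POU5F1 peaks (0.103%). Unshared POU5F1 flanks held it in 41 of 227954 windows (0.0180%). If 1 mismatch in the octamer was allowed, it occurred at 0.759% of shared (flanks 0.453%) and 0.390% of unshared SOX2 peaks (flanks 0.270%), and at 1.05% of shared and 1.07% of unshared POU5F1 peaks (flanks 0.337% and 0.348%). With TTTGT also allowed in place of ATTGT, a choice made after seeing the data, the shares were 1.81% and 1.01% at SOX2 peaks and 2.52% and 3.01% at POU5F1 peaks. Pooled over gaps, composite sequences were thus no more frequent at shared than at unshared POU5F1 midpoints. At SOX2 midpoints, as in their flanks, those with 1 mismatch were more frequent at shared peaks. By gaps of 0, 1, 2 and 3 bases, exact composites numbered 2, 3, 3 and 2 at shared POU5F1 midpoints. At unshared POU5F1 midpoints they numbered 36, 12, 42 and 28. Composites inside alternating stretches were not counted apart.

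Alternating stretches, as in the Rasal1 sequence, were more frequent at unshared than at shared POU5F1 peaks. They occurred at 22.9% of unshared and 8.90% of shared POU5F1 peaks, with 4.18% and 3.80% in the flanks. Of the 27184 POU5F1 peaks with such a stretch, 4.18% were shared with SOX2, below the rotation mean (ratio 0.697), while of the 99567 without it 11.7% were shared (ratio 1.79). The lowest ratio was that of the 21572 peaks with a stretch and without POU3F1, 3.09% of which were shared (ratio 0.535). At SOX2 midpoints such stretches were rare, with 1.31% of shared and 0.858% of unshared peaks, fewer than in their flanks (4.76% and 3.28%). Of the 811 SOX2 peaks with a stretch, 20.8% were shared with POU5F1 (ratio 2.24), compared with 14.7% of those without (ratio 1.57). This share is near that of SOX2 peaks with an octamer (23.1%, ratio 2.48).

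The closer the midpoints of a pair, the more often the sequence of the partner was present. At sites with midpoints within 100 bp, 79.5% of POU5F1 midpoints had a SOX sequence and 9.76% of SOX2 midpoints had an octamer. At sites with midpoints over 500 bp apart these were 60.4% and 3.52%. Windows of close midpoints overlap, so the same bases can serve for both TFs. The octamer at the POU5F1 midpoint itself did not follow this order (10.1% within 100 bp and 10.1% beyond 500 bp), and alternating stretches at POU5F1 midpoints rose from 1.81% to 11.9%.

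**Figure D4:**
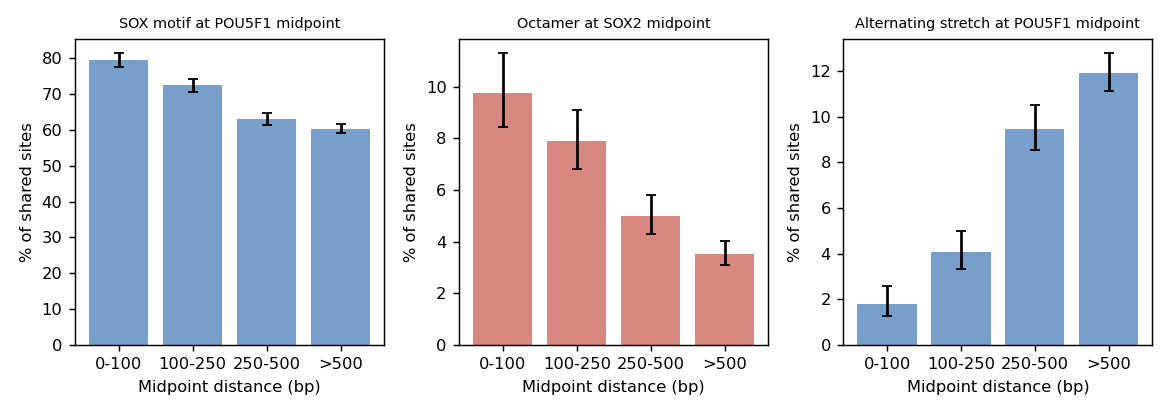
Percentage of shared sites (y axis, bars with 95% Wilson intervals) with a SOX sequence at the POU5F1 midpoint, an octamer at the SOX2 midpoint and an alternating stretch at the POU5F1 midpoint, by distance between the midpoints (x axis, bp). The SOX sequence goes from 79.5% to 60.4%, the octamer from 9.76% to 3.52% and the stretch from 1.81% to 11.9%.

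Shared SOX2 peaks were farther from TSSs than unshared ones, and for POU5F1 the difference was small. The median distance to the nearest TSS of any transcript was 39.2 kb for shared and 32.8 kb for unshared SOX2 peaks, and 39.6 and 38.6 kb for POU5F1 peaks. Within 50 kb of a TSS lay 55.5% of shared and 60.2% of unshared SOX2 peaks, and 55.2% and 56.3% of POU5F1 peaks. The POU5F1 difference turned to 0.913 percentage points when midpoints had to lie within 250 bp. Only 3.39% of shared SOX2 peaks lay within 1 kb of a TSS, compared with 4.45% of unshared ones. Introns held 41.5% of shared and 35.0% of unshared SOX2 peaks, and 41.8% and 39.7% of POU5F1 peaks. The SOX2 ratio to rotation was 1.30 within 1 kb of a TSS and 1.83 beyond 500 kb, whereas that of POU5F1 was 1.88 and 1.34.

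The shared sites with the highest scores in both lists were looked up individually. The highest lay between genes, 368 kb from the TSS of Arid1b, a subunit of the BAF chromatin remodelling complex, where the SOX2 peak (chr17:4625896-4626667) had a score of 3100 and the POU5F1 peak 3170. This region had a peak in all 8 lists of the other TFs and of EpiSC, with scores from 601 to 3158. Few shared sites were of this kind, since 34 (0.263%) had peaks in all 8 other lists, while 829 (6.42%) had none. The second lay 6.52 kb from the TSS of Sox21, a SOXB2 gene, with scores of 2244 and 1553 and midpoints 235 bp apart. There the EpiSC lists had SOX2 and POU5F1 peaks with scores of 1566 and 751, and no OTX2 peak was listed in either culture.

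Of the other 8 sites, that 25.1 kb from Prdm1, the gene of a repressor required for germ cells, had scores of 1129 for SOX2 and 1546 for POU5F1, and SOX2 and POU5F1 peaks were also present in EpiSC. The site 121 kb from Sntb1 had no ZIC2, OTX2 or POU3F1 peak in either culture, with scores of 1424 and 2439. Those nearest to Shisa3, Fat3, Csmd1, Zfp820 and Ssfa2 also had SOX2 and POU5F1 peaks in both cultures. At the site nearest to Ifna13, whose SOX2 peak was 4648 bp wide, no SOX2 peak was listed in EpiSC. The lower of both scores was between 1117 and 1447 at these 8 sites.

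Each shared site was assigned to the protein-coding gene with the nearest TSS. At least 1 shared site was assigned to 4386 of 22350 genes (19.6%), 6365 genes had peaks of both TFs but none shared, and 5306 had no peak of either. Shared sites accumulated at genes in wide intervals. The 245 genes with 10 or more held 32.5% of all shared sites, and the interval closer to their TSS than to any other had a median of 1130 kb, compared with 47.7 kb for all genes. Epha7, the gene of an ephrin receptor, had 53 shared sites, followed by Dach1, the gene of a nuclear factor of eye and limb development, with 49. Next were Cdh9 (48) and Pcdh7 (45), a cadherin and a protocadherin, and Odz2 (43), a teneurin. The axon guidance receptors Robo1 and Robo2 had 41 shared sites each, the receptor Lrp1b had 38 and the glutamate receptor Grik2 had 35. Per Mb, Dach1 had 38.8 and Epha7 had 18.4 shared sites, compared with 5.00 over all genes. The share of sites inside the gene itself varied, from 33 of 38 for Lrp1b and 33 of 49 for Dach1 to far fewer. It was 24 of 35 for Grik2, 22 of 45 for Pcdh7, 19 of 41 for Robo2 and 11 of 41 for Robo1. Odz2 had 10 of 43 inside, Epha7 5 of 53 and Cdh9 3 of 48.

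**Figure D5:**
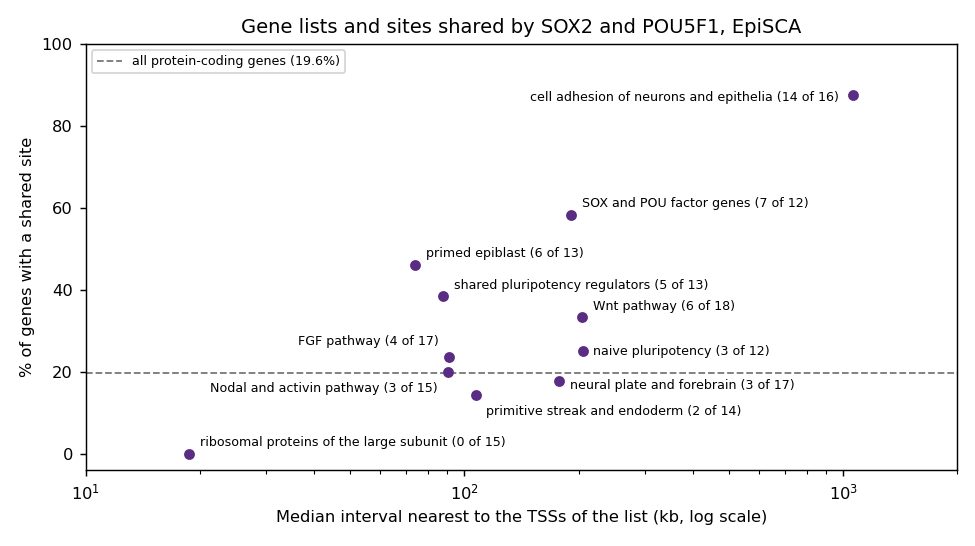
Percentage of the genes of each list with at least 1 shared site (y axis) against the median width of the interval nearest to their TSSs (x axis, kb, log scale), with the number of genes in parentheses. The dashed line marks the 19.6% of all protein-coding genes, and the cell adhesion list, with the widest intervals, stands at 14 of 16.

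Among genes of pluripotency, lists of primed and naive genes were compared. Of 13 genes of the primed epiblast, 6 had a shared site (13.1 sites per Mb), compared with 3 of 12 genes of naive pluripotency (1.37 per Mb). Of the 40 shared sites of the primed genes, 27 were at Cdh2, and the count includes Zic2 and Otx2, with peaks of both TFs over coding bases of genes that were also expressed from vectors in the series. Neither this difference nor that of any list from the 19.6% of all genes was tested. Fgf5, a marker of the primed epiblast, had 3 shared sites within 10 kb of the gene. Their SOX2 peaks had scores of 186, 183 and 139, and the POU5F1 peaks that overlapped them 1679, 280 and 204, while 2 further POU5F1 peaks, with scores of 149 and 2929, were unshared. Cdh2, the gene of N-cadherin, had its shared sites in an interval of 1864 kb, and the highest of them lay in its intron (scores 525 and 513). Foxd3, which represses naive genes, had 2 shared sites, and Dnmt3a, a DNA methyltransferase, had 1. The shared site 15.8 kb from Otx2 had scores of 437 and 1382, with peaks of both TFs in EpiSC.

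Shared sites over the coding sequences of Zic2 and Otx2 stand apart from these. Of the coding bases of Zic2, 93.4% lay in SOX2 peaks and 100% in POU5F1 peaks, with scores of 721 and 236 at the highest shared site, and neither TF had a peak there in EpiSC. In Otx2, 63.0% and 63.2% lay in peaks, with scores of 152 and 122. Vectors for both genes were used for other libraries of the series, and the part of vector DNA in these peaks was not tested. The SOX2 list also had a peak with a score of 3100 over 100% of the 957 coding bases of Sox2, and the POU5F1 list had 2 peaks with scores of 3100 over 100% of the 1122 coding bases of Pou5f1. Neither gene had a peak of the other TF over its coding bases, nor did Pou3f1 of either TF. For EpiSC, the authors attribute the strong SOX2 peak on Sox2 to carryover of the SOX2 vector. The part of vector DNA in the EpiSCA peaks on Sox2 and Pou5f1 was not tested.

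The naive genes with a shared site were Nr0b1, Klf4 and Nr5a2. Nr0b1, an orphan nuclear receptor, had 3, of which the highest lay in its intron 1.91 kb from the TSS with scores of 179 and 132, and no peak of either TF was listed there in EpiSC. Klf4 and Nr5a2 had 1 shared site each, 197 and 159 kb from the TSS. Esrrb, Tbx3, Zfp42, Tcfcp2l1 and 3 further genes had peaks of both TFs but none shared. Of 13 regulators common to both states of pluripotency, 5 had shared sites, among them Lin28b (7), Jarid2 (5), Mycn (2) and L1td1 (1). The highest site of Lin28b lay in its intron, 16.5 kb from the TSS, with scores of 236 and 275. Nanog, a core factor of pluripotency, had 2 SOX2 peaks and 1 POU5F1 peak, none of them shared.

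SOX and POU genes had shared sites in 7 of 12 cases, compared with 19.6% of all genes. Their intervals had a median of 191 kb, compared with 47.7 kb for all genes. Beside Sox21, with 3, the genes with shared sites were Pou3f2 (11), Pou2f1 (4), Sox2, Sox3, Sox4 and Sox11 (1 each). The sites of Pou3f2 lay in an interval of 1069 kb. The highest site of Pou2f1, the gene of OCT1, lay in its intron (scores 536 and 158). Within 10 kb of Sox2, 3 SOX2 peaks, 1 of them over its coding bases, and no POU5F1 peak were listed. The N2 enhancer, which lies upstream of Sox2, therefore had no shared site. Around Nes, a SOX2 peak with a score of 125 (chr3:87778219-87778828) was listed without POU5F1, and the Nes30 enhancer thus had no shared site either. These are values of EpiSCA. For EpiSC, the authors report a POU5F1 peak at N2 and peaks of SOX2 and POU5F1 at Nes30. No peak of either TF was assigned to Pou3f1, and Pou5f1 had 3 POU5F1 peaks, 2 of them over its coding bases.

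Shared sites were also listed for signalling genes, beside the 19.6% of all genes that had one. Of the Nodal and activin pathway, 3 of 15 genes had one, with 21 at the type II receptor gene Acvr2a, in an interval of 1916 kb, 4 at Inhba, which encodes a subunit of activin, and 1 at the type I receptor gene Acvr1b. Nodal, its co-receptor gene Tdgf1, its antagonists Lefty1 and Lefty2, and Smad2, Smad3, Smad4 and Smad7, the intracellular transducers and the inhibitor, had none. In the FGF pathway 4 of 17 genes had one, namely Fgf5 and the feedback inhibitors Spred1, Spred2 and Spry2. The site 432 kb from Spred2 had scores of 383 and 3100. In the Wnt pathway 6 of 18 genes had one, with 5 sites at the antagonist gene Dkk1, 2 each at Axin2 and Wnt5a, and 1 each at Tcf7l2, Lef1 and the receptor gene Fzd5. The highest, in an intron of Vti1a 198 kb from the TSS of Tcf7l2, had scores of 836 and 1667.

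For lineage genes, too, the counts stand beside the 19.6% of all genes. Of 17 genes of the neural plate and forebrain, Zic1 (3), Zic5 (1) and Sox3 (1) had one, although 13 others, among them Six3, Pax6 and Hesx1, had peaks of both TFs. The highest site of Zic1 lay 201 kb from its TSS (scores 400 and 707). Of 14 genes of the primitive streak and endoderm, only Foxa2 and Gata6 had one, with SOX2 scores of 100 and 69.3. The genes T, Eomes and Sox17 had peaks of both TFs, none shared. In contrast, 14 of 16 cell adhesion genes of neurons and epithelia had shared sites, 197 in all. The intervals of this list had a median of 1063 kb. The exceptions, Cdh1 and Epcam, both genes of epithelial adhesion, had intervals of 54.9 and 113 kb. None of 15 genes of large ribosomal subunit proteins had a shared site, in intervals with a median of 18.8 kb.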

How the data were processed

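ChIP-seq of biotinylated SOX2 and POU5F1 in EpiSCA was analysed from the deposited peak lists, 1 library for each TF. Per the labels and the methods, the authors aligned reads with Bowtie2 to the mm9 genome, and MACS1.4 then called peaks in each library against input DNA, with a band width of 150 bases. The deposited score is −10 times the log10 of the p-value. The lists hold 87907 and 126908 peaks, of which 126 and 157 outside chromosomes 1 to 19 and X were left out.

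Overlap was counted from 1 bp. The POU5F1 list was rotated 1000 times along each chromosome between the outermost peaks of any list. TSSs and 22350 protein-coding genes were from GENCODE vM1, sequences from mm9 in windows of 201 bases. The input library was not analysed here. No test was run between libraries. The steps were checked on simulated data.

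Genes and sites named are those of the 11 gene lists with a shared site (up to 5 each by the lower of both scores), the 10 genes with the most shared sites, the 10 highest shared sites, Sox2, Pou5f1 and 2 enhancers. Other genes of the lists, and the Zic2 and Otx2 coding sequences, were chosen after values were seen. A few items chosen by this rule are not reported here. Members and lists were chosen with earlier results of these data known. Alternatives were other thresholds, overlaps, widths, placements, windows, TSSs and chromosomes. Python 3.11.15, numpy 2.4.6, scipy 1.17.1 and matplotlib 3.10.9 were used.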

Additional observations from a re-analysis of the deposited data

How the results depend on the processing

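No paired analysis was possible because there was 1 library for each TF and no test. Leaving out a library was not run for the same reason. Of 93 recomputed values, 29 stayed within the limits set for them, 59 moved beyond these in the same direction and 5 reversed; the cause was not tested beyond what each setting removes. The limits were the rotation range, the counting interval or, for the midpoint distance, the quartiles over pairs, so that its median of 336 bp with peaks under 1000 bp and 528 bp with scores of at least 100 stayed within them. Counts of genes and differences of medians had a factor as their limit. The looser composite, with TTTGT or ATTGT and at most 1 mismatch in the octamer, was chosen after seeing the data.

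Each pair below is SOX2, then POU5F1. The shared percentages were 13.3 and 6.60 with scores of at least 100, 4.74 and 3.28 with overlap of 50% of both peaks, 4.35 and 3.01 with midpoints within 250 bp, 8.08 and 7.93 with 50000 peaks and 5.40 and 5.68 with peaks under 1000 bp. The ratios to rotation were 1.71 and 1.71 with 50% overlap, 1.74 and 1.74 with midpoints within 250 bp, 1.43 and 1.44 with peaks under 1000 bp and 1.34 and 1.28 with placement in the same segment of 1 Mb. The central midpoint ratio was 1.60 with scores of at least 100 and with peaks under 1000 bp.

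Among differences of medians, shared minus unshared, the POU5F1 score difference was 9.80 with midpoints within 250 bp. The score differences were 50.1 and −26.3 with 50% overlap, and 10.2 and −2.89 with peaks under 1000 bp. The width differences were 33 and 20 bp with midpoints within 250 bp, 141 and −18 bp with 50% overlap, and 30 bp for SOX2 with scores of at least 100.

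The other differences are percentage points, shared minus unshared. Within 50 kb of a TSS they were −2.63 and 0.913 with midpoints within 250 bp. In windows of 50 bp to either side they were −4.09 and 7.34 for the SOX sequence, 1.19 and −2.12 for the octamer and, at POU5F1, −10.3 for the alternating stretch. In windows of 200 bp to either side they were −0.735 and 7.30, 4.49 and −4.75, and 1.19 and −16.4. With midpoints within 250 bp they were −3.46 and 18.6 for the SOX sequence, 5.48 for the octamer at SOX2 and −18.9 for the stretch at POU5F1. With the looser composite they were 0.798 and −0.487.

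For POU3F1 peaks they were 51.1 and 17.6 with scores of at least 100, and 31.8 and 9.48 with midpoints within 250 bp. For OTX2 peaks at POU5F1 peaks they were 9.84 and 7.61 under these settings. For ZIC2 peaks they were −1.40 and 0.668, then 0.616 and 2.71. For the same TF in EpiSC the SOX2 difference was 3.61 with scores of at least 100, and with midpoints within 250 bp they were 4.56 and 7.48. Genes with a shared site numbered 3039 with sites within 50 kb of the TSS, 2789 with scores of at least 100 and 2247 with midpoints within 250 bp.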

Other observations

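Of the 2578 segments of 1 Mb, 421 held no shared site, the median was 3 and the highest number was 43, on chromosome 14 between 98 and 99 Mb, where Dach1 lies. Over segments, shared sites had a Spearman's rho of 0.762 with POU3F1 peaks, −0.51 with GC content and −0.334 with the number of protein-coding genes. Segments share base composition and lists, so these are descriptions.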
